A study of Mus musculus with 12 samples.

Results

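The 28 genes described here encode enzymes of cholesterol synthesis, enzymes of fatty acid synthesis and the proteins that sense sterols and control both pathways. They were chosen by name, without the use of a measured value, from the 29838 genes of the expression table, and all 28 were among the 12994 genes whose expression reached 1 FPKM (the fragments of a gene scaled to its transcript length and to the size of the library) in at least 3 libraries. Of the members, 7 act in the mevalonate pathway, 11 act between squalene and cholesterol, 6 regulate the pathways or carry sterols, and 4 make or desaturate fatty acids.

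RNA was sequenced from erythroblasts sorted out of the bone marrow of wild type male C57BL/6 mice aged 8 weeks, with 3 libraries for each of 4 successive stages, proerythroblasts (Pro), basophilic (Baso), polychromatic (Poly) and orthochromatic (Ortho) erythroblasts. CD45-positive cells were depleted first, Pro cells were taken as high in CD44 and low in Ter119, and the other stages were separated among Ter119-positive cells by their CD44 level and size. No treatment is given in the labels, and the stages differ in the gate through which the cells were sorted. Of the Ortho libraries, replicates 2 and 3 are labelled only as erythroblasts, and their stage comes from their titles. The labels do not say whether the libraries of a stage came from separate animals, so that every p-value measures the spread between these libraries, which may be technical.

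Cholesterol is built from acetyl-CoA. The mevalonate pathway condenses acetyl-CoA and yields farnesyl diphosphate, squalene is made from it and closed into lanosterol, and lanosterol is trimmed to cholesterol in the endoplasmic reticulum. When sterols are scarce, SCAP carries the SREBP transcription factors out of the endoplasmic reticulum and they activate these genes, whereas INSIG proteins hold SCAP back when sterols are plentiful. Erythroblasts become smaller with each division, fill with hemoglobin, and finally lose their nucleus and most of their organelles.

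The stage labels were checked against marker genes. Hemoglobin transcripts made up between 6.98% and 10.7% of the summed FPKM in the Pro libraries, between 33.2% and 36.7% in Baso, between 34.8% and 37.6% in Poly and between 47.2% and 52.6% in Ortho. The Baso and Poly ranges overlapped. Between these 2 stages 0 of 5 late and 0 of 4 early erythroid markers passed the test, and 2 of 10 erythroid markers fell. The markers thus told Baso and Poly apart only weakly. Of 10 erythroid markers 6 rose from Pro to Ortho, 3 fell (Gata1, Klf1 and Epor) and Tfrc did not pass the test. All 5 late erythroid markers rose from Pro to Ortho, among them Xpo7 from 22.0 to 948 FPKM. Of 4 early markers none fell from Pro to Ortho, and Kit (17.8 in Pro and 14.5 in Ortho) did not pass the test. Gata2, Myb and Cd44 were higher in Ortho, against the direction of an early marker. Markers of other cell types also moved with the stages. The 8 neutrophil markers summed to between 6835 and 8541 FPKM in Pro and between 13412 and 16669 in Ortho, and 7 of them rose. Their sums were 11752 to 13776 in Baso and 15098 to 17888 in Poly. The 8 B cell markers, which all rose, summed to 63.1 to 110 in Pro, 117 to 135 in Baso, 156 to 186 in Poly and 160 to 206 in Ortho. Of 8 macrophage markers 4 were tested and 3 rose, with sums of 29.3 to 35.2 in Pro, 39.2 to 41.8 in Baso, 48.4 to 55.6 in Poly and 62.3 to 73.9 in Ortho, while C1qb, C1qc and Mrc1 stayed under 1 FPKM in every library. Of 6 megakaryocyte and platelet markers, which summed to 68.1 to 123 in Pro, 42.8 to 103 in Baso, 41.6 to 51.8 in Poly and 37.1 to 46.3 in Ortho, 4 fell and 1 rose. Of 7 T and NK cell markers 2 were tested and both rose, and Cd3d, Cd3e, Cd3g, Cd8a and Trbc2 stayed under 1 FPKM, with sums of 21.1 to 28.9 in Pro, 33.8 to 37.5 in Baso, 37.8 to 40.4 in Poly and 33.5 to 39.5 in Ortho. The part of these cells in the results below was not tested. In bulk RNA, fewer cells of a type and less RNA per cell cannot be told apart.

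The plot of FPKM by library shows each member on its own scale. By mean FPKM over the 12 libraries the members ran from 1.33 for Hsd17b7 to 27.5 for Srebf2, and 10 of them reached 10 FPKM or more. The highest stage mean lay in Pro for 19 of the 28 members, in Baso for 2, in Poly for 4 and in Ortho for 3. The lowest lay in Ortho for 14, in Baso for 8, in Pro for 4 and in Poly for 2. These counts were not taken over all genes, so that they do not show a trait particular to the members. Of all genes tested, 53.2% fell and 22.7% rose from Pro to Ortho in the test given next.

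**Figure D1:**
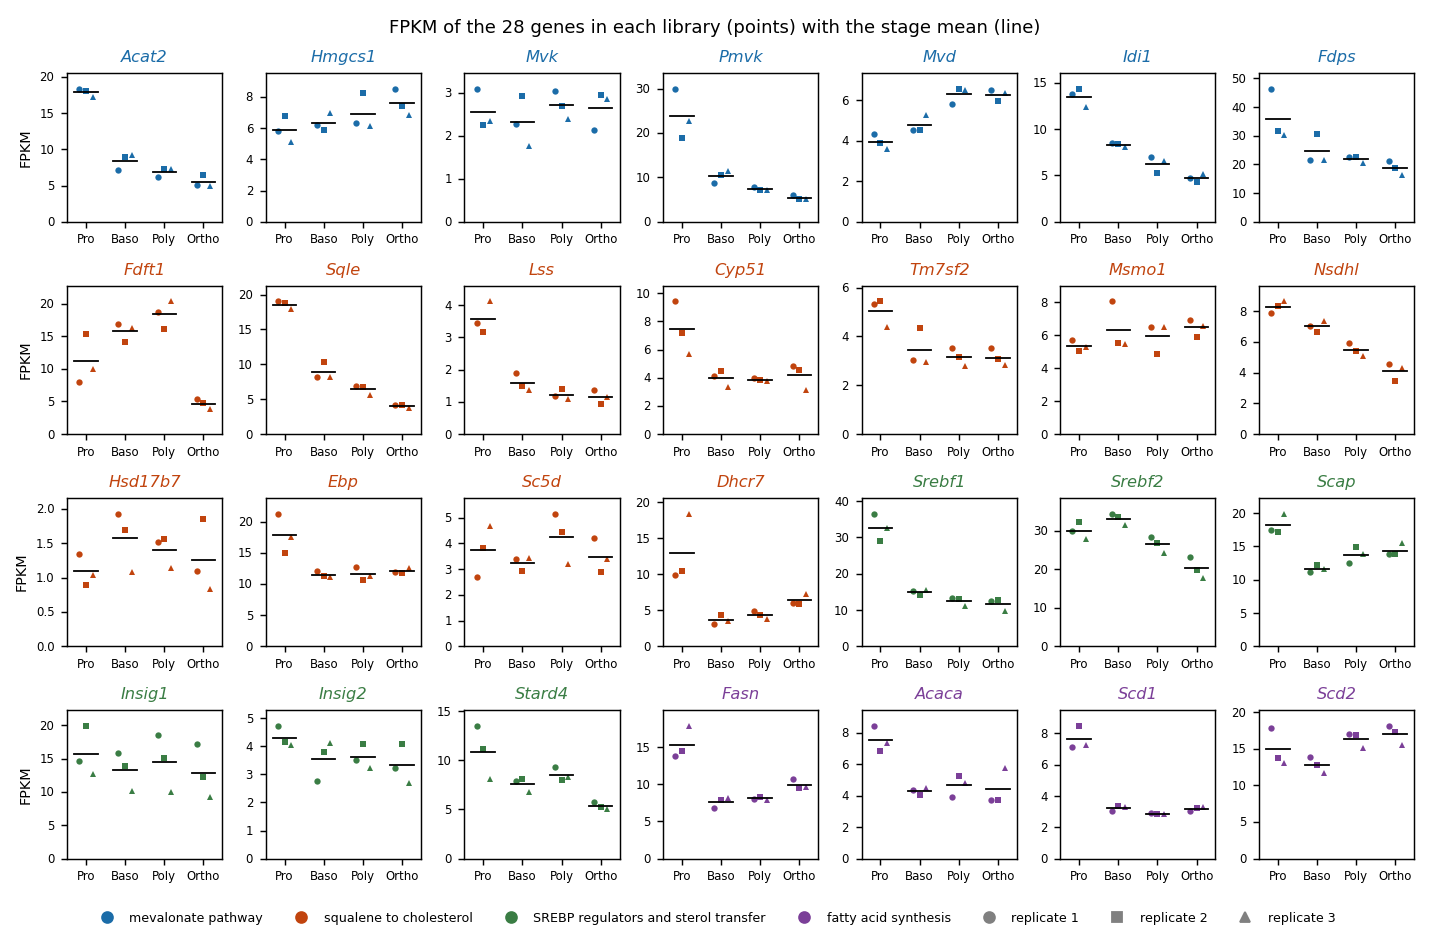
FPKM of the 28 genes (vertical axes, each from 0) in the 3 libraries of each stage, with the mean as a line. Pro holds the highest mean for 19 genes, a count that was not taken over all genes. Fdft1 is the gene with a high Poly mean (18.4 FPKM) and a low Ortho mean (4.65 FPKM), and Mvd rises from 3.94 in Pro to 6.27 in Ortho.

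Over the whole course, from Pro to Ortho, 19 members fell, 2 rose and 7 did not pass the test (limma on log2(FPKM + 1), adjusted p under 0.05 over all tested genes). Of all genes tested, 53.2% fell and 22.7% rose in this comparison, so that the members' 19 of 28 stand beside a background in which more genes fell than not. At least 2-fold on the log2(FPKM + 1) scale, 8 members fell, Sqle, Pmvk, Acat2, Srebf1, Idi1, Lss, Fdft1 and Scd1, and no member rose (background 23.8% lower and 6.33% higher). The members' median log2 fold change was -0.63, against -0.43 for all genes. FPKM is scaled to the size of the library, so that a growing hemoglobin share can lower the values of other genes. Its part in these falls was not tested. The summed FPKM was not constant, with 505624 to 526044 in Pro and 655594 to 691033 in Ortho. With the hemoglobin genes left out and the libraries rescaled, the median of all genes was -0.03, the median of the members was -0.21, and 10 members were lower and 5 higher (background 34.8% and 34.3%). Centring each library on its median gave 11 lower and 6 higher members (background 35.5% and 34.5%), and scaling all libraries to the same summed FPKM gave 21 lower and 1 higher (background 63.4% and 14.7%).

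Under all 4 scalings, 10 members were lower in Ortho than in Pro, namely Acat2, Pmvk, Idi1, Fdft1, Sqle, Lss, Nsdhl, Srebf1, Stard4 and Scd1, and 1, Mvd, was higher. The plot of the 4 scalings separates these from members whose call depended on the scaling. The share of all genes called under all 4 scalings was not taken, so that these counts have no background of their own. In the scaling without the hemoglobin genes alone, 34.8% of all genes were lower and 34.3% higher. With the hemoglobin genes left out, 9 falls no longer passed the test, with log2 fold changes of -0.42 for Dhcr7, -0.42 for Fdps, -0.29 for Cyp51, -0.26 for Acaca, -0.15 for Tm7sf2, -0.12 for Fasn, -0.079 for Srebf2, -0.056 for Ebp and 0.14 for Scap, the last of which changed sign. In the same scaling, Msmo1 (0.65), Scd2 (0.65) and Mvk (0.39) were higher in Ortho, which they were not as deposited.

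**Figure D2:**
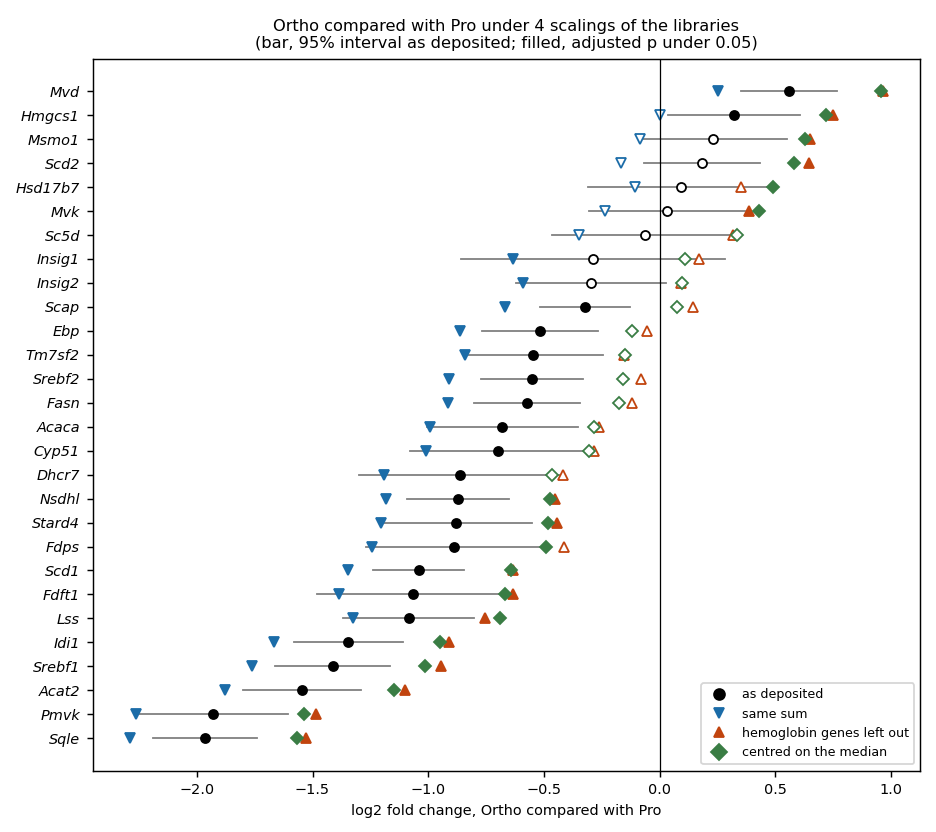
Log2 fold change of each member between Pro and Ortho under 4 scalings of the libraries, with the 95% interval of the values as deposited and filled symbols for an adjusted p under 0.05. The 8 lowest genes, from Scd1 at -1.04 to Sqle at -1.97 as deposited, stay filled and below 0 in every scaling, and Mvd stays filled and above 0.

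By step, more members passed the test between Pro and Baso than at either later step. In that step 16 members fell (background 42.1%), 1 rose (background 14.9%) and 11 did not pass the test, with a median of -0.49 against -0.23 for all genes. The 5 that fell at least 2-fold (background 8.54%) were Dhcr7, Pmvk, Srebf1, Scd1 and Acat2, and 0 rose as much (background 1.82%). Between Baso and Poly, 2 members fell (background 5.77%) and 1 rose (background 6.58%), none of them 2-fold (background 0.454% and 0.0616%). Between Poly and Ortho, 6 fell (background 21.7%) and 0 rose (background 4.43%), and Fdft1 alone fell at least 2-fold (background 4.81%, and 1.05% for a rise). At an unadjusted p under 0.05 in limma, 2 members, Dhcr7 and Fasn, were higher and 8 lower in Ortho than in Poly (background 7.47% and 27.2%), and 3 were higher and 7 lower in Poly than in Baso (background 16.9% and 12.4%). Baso, Poly and Ortho libraries of the same number deviated together. When the number entered a model of these 3 stages as a replicate block, 4 members were lower and 2 higher between Baso and Poly (background 9.44% and 12.6%), and 7 lower and 1 higher between Poly and Ortho (background 24.5% and 6.31%). With the hemoglobin genes left out, the Pro to Baso step had 13 lower and 5 higher members (background 24.4% and 27%), the median of all genes being 0.03, and the members that then rose beside Fdft1 were Mvd, Srebf2, Msmo1 and Hmgcs1. In that scaling the step from Poly to Ortho had 3 lower members (background 16.2%) and 2 higher ones (background 9.54%), Fasn and Dhcr7, where the values as deposited had 6 and 0, and the step from Baso to Poly had 1 lower and 1 higher (background 4.79% and 8.7%).

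**Figure D3:**
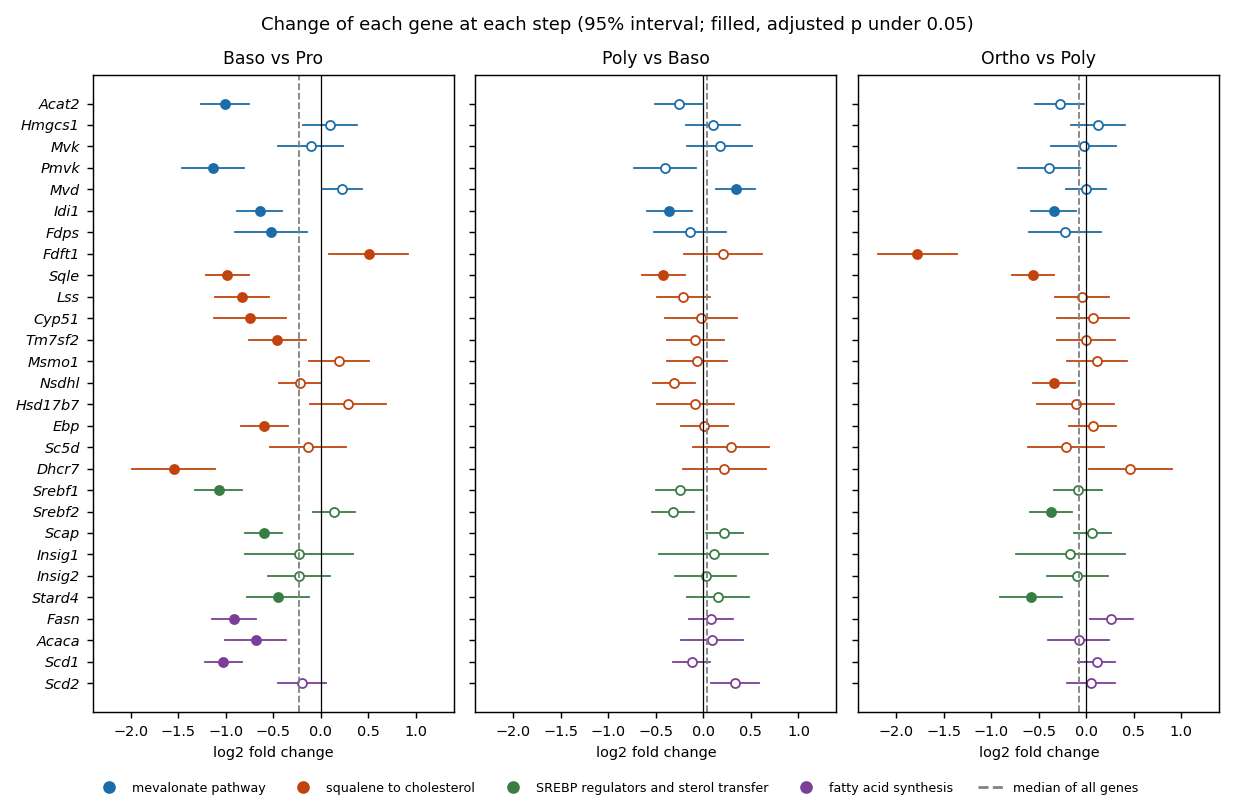
Log2 fold change with its 95% interval for each member at the 3 successive steps, filled where the adjusted p was under 0.05, and the median of all genes as a dashed line (-0.23, 0.03 and -0.08). The left panel holds 17 filled symbols, the middle panel 3 and the right panel 6, where Fdft1 stands apart at -1.78.

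The mevalonate pathway members moved in both directions. From Pro to Ortho 4 of 7 fell (Pmvk, Acat2, Idi1 and Fdps), 2 rose (Mvd and Hmgcs1) and Mvk did not pass the test (background 53.2% lower and 22.7% higher). The summed FPKM of the 7 genes was 93.6 to 121 in Pro and 47.5 to 54.1 in Ortho. Pmvk, on chromosome 3 at 89454541 to 89469013 of mm10, encodes phosphomevalonate kinase, which phosphorylates phosphomevalonate. It measured 29.9, 19.0 and 22.8 FPKM in the Pro libraries, 8.70, 10.5 and 11.4 in Baso, 7.81, 7.21 and 7.24 in Poly and 6.11, 5.06 and 5.11 in Ortho. The stages did not overlap, and the mean was 4.4 times higher in Pro than in Ortho (log2 fold change -1.93, SE 0.15, adjusted p = 3.71e-07). Its fall was -1.13 from Pro to Baso. The Baso to Poly change of -0.41 (adjusted p = 0.0968) and the Poly to Ortho change of -0.39 (adjusted p = 0.0767) passed the threshold with the replicate block in these 3 stages (adjusted p = 0.0498 and 0.0426), and the latter also with the same summed FPKM (-0.55, adjusted p = 0.0185).

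Acat2, which encodes the cytosolic thiolase that joins acetyl-CoA units at the entry of the pathway, had 18.3, 18.01 and 17.2 FPKM in Pro and 7.15, 8.91 and 9.21 in Baso. Its values were 6.12, 7.23 and 7.23 in Poly and 5.10, 6.45 and 4.92 in Ortho. Every Pro library lay above every later library, whereas neighbouring later stages overlapped, and the change from Pro to Ortho was -1.55 (SE 0.12, adjusted p = 3.18e-07). Idi1, the isomerase that interconverts the isoprenoid building blocks, had 13.8, 14.3 and 12.4 FPKM in Pro, 8.48, 8.40 and 8.03 in Baso, 7.01, 5.24 and 6.59 in Poly and 4.73, 4.25 and 5.18 in Ortho. No 2 stages overlapped, although the highest Ortho library (5.18) lay just below the lowest Poly library (5.24). The change was -0.64 from Pro to Baso (SE 0.11, adjusted p = 0.000399) and -1.34 from Pro to Ortho (SE 0.11, adjusted p = 4.99e-07). The smaller falls of Idi1 from Baso to Poly (-0.36, adjusted p = 0.05 after rounding) and from Poly to Ortho (-0.34, adjusted p = 0.0342) were not secure. The first was lost without any 1 of the 12 libraries (-0.25 to -0.43), and the second without Poly replicate 1 (-0.27), Poly replicate 3 (-0.31), Ortho replicate 1 (-0.35) or Ortho replicate 2 (-0.28) and with the hemoglobin genes left out (-0.23).

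Fdps, the synthase of farnesyl diphosphate and the second most abundant member, had 46.2, 31.6 and 30.1 FPKM in Pro, 21.6, 30.7 and 21.6 in Baso, 22.5, 22.7 and 20.5 in Poly and 21.04, 18.8 and 16.2 in Ortho. Baso replicate 2 reached into the Pro range, and Pro replicate 1 stood above the other Pro libraries. The change from Pro to Ortho was -0.89 (SE 0.17, adjusted p = 0.000591), and that from Pro to Baso, -0.52 (adjusted p = 0.0223), was lost without Pro replicate 1 (-0.33), Baso replicate 1 (-0.44) or Baso replicate 3 (-0.44) and with the hemoglobin genes left out (-0.22). Exons of Fdps share 1124 of their 4208 bases with the overlapping gene model Gm43738 on the same strand, and how such fragments were counted is not stated.

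Mvd and Hmgcs1 rose from Pro to Ortho in the values as deposited, where 4 of the other 5 genes of the pathway fell. Mvd, on chromosome 8 at 122433601 to 122443422, encodes mevalonate diphosphate decarboxylase, the step directly after Pmvk. Its values were 4.33, 3.87 and 3.62 FPKM in Pro, 4.51, 4.53 and 5.28 in Baso, 5.83, 6.55 and 6.498 in Poly and 6.51, 5.95 and 6.37 in Ortho. Pro, Baso and Poly did not overlap, Poly and Ortho did, and the rise from Pro to Ortho was 0.56 (SE 0.09, adjusted p = 0.000201), or 1.59-fold by the stage means. Over the scalings the rise ran from 0.25 with the same summed FPKM to 0.96 with the hemoglobin genes left out. The step from Baso to Poly (0.34, adjusted p = 0.0405) lost its call without any 1 of the 9 Baso, Poly or Ortho libraries (0.31 to 0.40) and with the libraries centred (0.29) or at the same sum (0.34). Hmgcs1, the HMG-CoA synthase that precedes the committed step, had 5.80, 6.76 and 5.08 FPKM in Pro, 6.21, 5.87 and 6.95 in Baso, 6.31, 8.27 and 6.16 in Poly and 8.49, 7.40 and 6.86 in Ortho. Its order of means rose from stage to stage, but neighbouring stages overlapped and no step passed the test. The change from Pro to Ortho (0.32, SE 0.13, adjusted p = 0.0401) lost its call without Pro replicate 1 (0.32), Pro replicate 3 (0.24), Baso replicate 1 (0.32), Ortho replicate 1 (0.25) or Ortho replicate 2 (0.34), and was 0.001 with all libraries at the same sum. Mvk, the mevalonate kinase, stayed between 1.77 and 3.08 FPKM in all 12 libraries, with a change of 0.033 (95% interval -0.30 to 0.37), and was higher in Ortho with the hemoglobin genes left out (0.39, adjusted p = 0.049) and with the libraries centred (0.43, adjusted p = 0.031).

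Upstream sequences are shown for the pair that fell most and the pair that rose most among members with a RefSeq promoter entry that could be printed, so that genes of neighbouring steps can be read side by side. Each line gives the 250 bases before the annotated start, from 5′ to 3′ on the gene's strand (GRCm38.p6, from RefSeq). Capitals mark matches on either strand to the sterol regulatory element TCACNCCAC, the NF-Y box CCAAT, the E-box CANNTG, the Sp1 box GGGCGG and the GATA motif AGATAA, and where capitals run on, matches adjoin or overlap.
Pmvk, chr3:89454291-89454540, plus strand: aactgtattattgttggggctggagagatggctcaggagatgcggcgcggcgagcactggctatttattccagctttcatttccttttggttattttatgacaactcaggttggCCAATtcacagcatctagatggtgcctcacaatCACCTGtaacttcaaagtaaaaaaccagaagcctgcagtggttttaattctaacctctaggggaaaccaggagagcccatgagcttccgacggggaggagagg
Acat2, chr17:12960726-12960975, minus strand: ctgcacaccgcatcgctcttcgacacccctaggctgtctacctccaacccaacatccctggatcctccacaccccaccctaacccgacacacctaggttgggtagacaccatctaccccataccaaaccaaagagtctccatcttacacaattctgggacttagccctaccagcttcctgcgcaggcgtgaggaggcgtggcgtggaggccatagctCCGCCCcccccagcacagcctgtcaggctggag
Mvd, chr8:122443423-122443672, minus strand: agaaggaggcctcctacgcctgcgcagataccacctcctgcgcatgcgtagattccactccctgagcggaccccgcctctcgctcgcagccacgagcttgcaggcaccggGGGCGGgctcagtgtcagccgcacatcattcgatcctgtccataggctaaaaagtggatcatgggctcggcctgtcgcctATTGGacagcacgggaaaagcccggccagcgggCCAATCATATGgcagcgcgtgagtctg
Hmgcs1, chr13:119690101-119690350, plus strand: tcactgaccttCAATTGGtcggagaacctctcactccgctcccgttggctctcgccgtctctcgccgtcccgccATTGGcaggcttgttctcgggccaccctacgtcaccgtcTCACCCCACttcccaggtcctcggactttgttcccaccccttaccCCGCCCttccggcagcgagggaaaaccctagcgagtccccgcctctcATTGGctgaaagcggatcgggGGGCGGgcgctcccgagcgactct

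Of these sequences, that of Hmgcs1 holds the sterol regulatory element, as TCACCCCAC starting 137 bases before the start, and it also holds 3 NF-Y boxes and 2 Sp1 boxes. The Mvd sequence holds 2 NF-Y boxes and 1 Sp1 box, the Pmvk sequence 1 NF-Y box and no Sp1 box, and the Acat2 sequence 1 Sp1 box and no NF-Y box. A promoter window of 250 bases before to 50 after the start was available for 22 of the 28 members, in 30 windows. The NF-Y box was in 20 of these 30 windows (66.7%) and in 37.4% of all 32851 windows, and the Sp1 box was in 23 (76.7%) and in 35.7% of all. The E-box was in 26 (86.7%) and in 72.3% of all, the sterol regulatory element in 1 (3.33%, Hmgcs1) and in 1.24% of all, and the GATA motif in 1 (3.33%, Insig2) and in 11.2% of all. By gene, 14 of the 22 fell from Pro to Ortho. The NF-Y box was in 11 of those 14 and in 8 of the other 8, and the Sp1 box was in as many. The E-box was in 10 of the 14 and in 8 of the 8. A difference between the genes that fell and the others was not tested for any motif. A gene counted with a match in any of its windows, and no share by gene was taken over all genes. These are matches of letters, several windows belong to the same gene, and members without a match were searched in this window only.

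Between squalene and cholesterol, 8 of 11 members fell from Pro to Ortho (background 53.2%), 0 rose (background 22.7%) and 3 did not pass the test. The summed FPKM of the 11 genes was 93.4 to 97.5 in Pro, 64.0 to 69.7 in Baso, 62.4 to 71.1 in Poly and 49.2 to 53.9 in Ortho, so that the Pro libraries lay above and the Ortho libraries below all others. Sqle, on chromosome 15 at 59315077 to 59331192, encodes squalene epoxidase, a rate-limiting enzyme of the sterol branch, and it had the largest fall of the 28 members. Its values were 19.0, 18.7 and 17.9 FPKM in Pro, 8.24, 10.3 and 8.25 in Baso, 6.86, 6.74 and 5.60 in Poly and 4.13, 4.14 and 3.75 in Ortho. No 2 stages overlapped, and the mean was 4.63 times higher in Pro than in Ortho (log2 fold change -1.97, SE 0.10, adjusted p = 2.66e-08). It fell at every step, by 0.98 from Pro to Baso (adjusted p = 1.43e-05), by 0.42 from Baso to Poly (adjusted p = 0.0258) and by 0.56 from Poly to Ortho (adjusted p = 0.00137), which of the other members Idi1 did too, with the limits given above. The middle step was lost without Baso replicate 2 (-0.33), Poly replicate 1 (-0.47), Poly replicate 2 (-0.46) or Poly replicate 3 (-0.34).

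Fdft1, the squalene synthase that directly precedes Sqle, had another course. It measured 8.05, 15.4 and 10.01 FPKM in Pro, 16.9, 14.1 and 16.3 in Baso, 18.7, 16.1 and 20.3 in Poly and 5.30, 4.78 and 3.88 in Ortho. All 3 Ortho libraries lay below every other library, and Pro replicate 2 lay among the Baso libraries. From Poly to Ortho the mean dropped 3.95-fold (log2 fold change -1.78, SE 0.19, adjusted p = 2.14e-05), the largest fall of any member in that step. Relative to the median of all genes the drop was -1.70. From Pro to Baso Fdft1 rose by 0.51 (SE 0.19, adjusted p = 0.038), the opposite of the 16 members that fell in that step. That rise was lost without Pro replicate 1 (0.32), Pro replicate 3 (0.46), Baso replicate 1 (0.46) or Baso replicate 3 (0.48), with the replicate block in all 12 libraries (adjusted p = 0.0572) and with the same summed FPKM (0.34). Fdft1 lies on chromosome 14 at 63145150 to 63179578, and 774 of its 4227 exon bases overlap Ctsb, which is transcribed from the opposite strand. Ctsb, which encodes the protease cathepsin B, rose by 0.29 between Poly and Ortho (adjusted p = 0.0163) and by 0.69 between Pro and Baso (adjusted p = 2.27e-05). Whether the counting used strand is not stated.

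Lss, the cyclase that makes lanosterol, was low, with 3.45, 3.15 and 4.11 FPKM in Pro, 1.88, 1.49 and 1.35 in Baso, 1.19, 1.39 and 1.08 in Poly and 1.36, 0.939 and 1.16 in Ortho. The Pro libraries lay above all others and the later stages overlapped, and the fall from Pro to Ortho was -1.09 (SE 0.13, adjusted p = 1.27e-05). Cyp51, the lanosterol demethylase, fell from 7.43 ± 1.88 FPKM (SD, n = 3) in Pro to 3.98 ± 0.59 in Baso (-0.74, adjusted p = 0.00337) and was 3.87 ± 0.13 in Poly and 4.16 ± 0.90 in Ortho. Tm7sf2, a sterol reductase of the next step, fell from 5.05 ± 0.58 in Pro to 3.44 ± 0.77 in Baso (-0.45), a call that was lost without Baso replicate 1 (-0.39) or Baso replicate 3 (-0.38) and with the hemoglobin genes left out (-0.20). It shares 532 of 4403 exon bases with Vps51 on the same strand. Ebp, the sterol isomerase, fell from 17.9 ± 3.17 in Pro to 11.4 ± 0.53 in Baso (-0.59, adjusted p = 0.001) and then stayed at 11.5 ± 1.09 and 12.1 ± 0.44.

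Nsdhl, a dehydrogenase of the demethylation steps, had a lower mean at each later stage. The Pro libraries had 7.86, 8.36 and 8.63 FPKM, the Baso libraries 7.01, 6.62 and 7.38, the Poly libraries 5.93, 5.39 and 5.05 and the Ortho libraries 4.53, 3.46 and 4.30. No 2 stages overlapped. Its change was -0.22 from Pro to Baso (adjusted p = 0.088), -0.31 from Baso to Poly (adjusted p = 0.0654) and -0.34 from Poly to Ortho (adjusted p = 0.0238), with -0.87 over the whole course (SE 0.10, adjusted p = 9.95e-06). The last step lost its call without Poly replicate 1 (-0.29), Poly replicate 2 (-0.35) or Ortho replicate 2 (-0.25) and with the hemoglobin genes left out (-0.23).

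Dhcr7, the reductase that makes cholesterol itself from its last precursor, had the largest fall of the Pro to Baso step. Its values were 9.88, 10.4 and 18.4 FPKM in Pro, 3.09, 4.29 and 3.49 in Baso, 4.95, 4.37 and 3.82 in Poly and 5.98, 5.94 and 7.30 in Ortho. Every Ortho library lay above every Baso and Poly library and below every Pro library. The fall from Pro to Baso was -1.54 (SE 0.20, adjusted p = 5.85e-05). From Baso to Ortho Dhcr7 rose by 0.68 (SE 0.20, adjusted p = 0.0151), a rise that was lost without Baso replicate 1 (0.60) or Ortho replicate 3 (0.60). From Poly to Ortho its rise of 0.46 did not pass the test (adjusted p = 0.121), but did with the replicate block in 3 stages (adjusted p = 0.0437), with the hemoglobin genes left out (0.59, adjusted p = 0.0377) and with the libraries centred (0.61, adjusted p = 0.0391).

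Msmo1, Hsd17b7 and Sc5d, which encode a methyl sterol oxidase, a sterone reductase and a sterol desaturase, did not pass the test in any comparison as deposited. Msmo1, which had the third largest rise by size, measured 5.73, 5.06 and 5.29 FPKM in Pro, 8.06, 5.53 and 5.45 in Baso, 6.53, 4.89 and 6.51 in Poly and 6.94, 5.91 and 6.58 in Ortho. Its Ortho libraries lay above its Pro libraries, and the change was 0.23 (95% interval -0.083 to 0.55, adjusted p = 0.161). Hsd17b7 stayed between 0.836 and 1.93 FPKM (0.092, 95% interval -0.31 to 0.49) and Sc5d between 2.69 and 5.15 FPKM (-0.064, 95% interval -0.47 to 0.34). With the libraries centred, Hsd17b7 was higher in Ortho than in Pro (0.489, adjusted p = 0.0376).

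Among the regulators, Srebf1 and Srebf2 parted. Srebf1, on chromosome 11 at 60199089 to 60222581, encodes the SREBP-1 factors that mainly drive fatty acid genes, and Srebf2 encodes SREBP-2, which mainly drives cholesterol genes. Srebf1 measured 36.5, 28.9 and 32.6 FPKM in Pro, 15.2, 14.2 and 15.4 in Baso, 13.2, 12.9 and 11.2 in Poly and 12.5, 12.7 and 9.82 in Ortho. The Pro libraries lay far above the rest, the Baso libraries lay above both later stages, and Poly and Ortho overlapped. The change was -1.07 from Pro to Baso (SE 0.11, adjusted p = 1.56e-05) and -1.41 from Pro to Ortho (SE 0.11, adjusted p = 5.21e-07). Srebf2, the most abundant member, had 30.1, 32.4 and 27.8 FPKM in Pro, 34.5, 33.5 and 31.5 in Baso, 28.4, 26.8 and 24.3 in Poly and 23.1, 19.9 and 17.8 in Ortho. Its Pro and Baso libraries overlapped (0.14, adjusted p = 0.266), and it fell later, by 0.37 from Poly to Ortho (adjusted p = 0.0161) and by 0.69 from Baso to Ortho (SE 0.10, adjusted p = 0.000195). The Poly to Ortho call was lost without Poly replicate 1 (-0.32), Poly replicate 2 (-0.36) or Ortho replicate 3 (-0.29), with the hemoglobin genes left out (-0.24) and with the libraries centred (-0.22). The Baso to Poly change of Srebf2, -0.32, passed with the replicate block in 3 stages (adjusted p = 0.0149) or in all libraries (adjusted p = 0.0253) and with the libraries centred (-0.36, adjusted p = 0.0357).

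The ratio of both genes does not depend on how a library was scaled. Srebf1 to Srebf2 was 0.89 to 1.21 in Pro, 0.425 to 0.49 in Baso, 0.461 to 0.482 in Poly and 0.54 to 0.636 in Ortho. The ratio differed between stages (exact permutation test, p = 0.000325, adjusted p = 0.000779 over 3 ratios). The ratio lay around 1 in Pro and below 1 in all 9 later libraries, and the Ortho ratios lay above those of Baso and Poly. Some Srebf1 exon bases (109 of 5634) overlap Rai1 on the opposite strand.

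Scap, the escort of SREBP, had 17.5, 17.3 and 19.9 FPKM in Pro, 11.1, 12.2 and 11.7 in Baso, 12.5, 15.0 and 13.8 in Poly and 13.8, 13.8 and 15.5 in Ortho. It fell from Pro to Baso (-0.60, SE 0.09, adjusted p = 0.000159) and was higher in Ortho than in Baso (0.28, adjusted p = 0.023), and all 3 Ortho libraries lay above the Baso libraries. The latter call was lost without Baso replicate 1 (0.25), Baso replicate 3 (0.28) or Ortho replicate 3 (0.23) and with the same summed FPKM (0.10). Stard4, which encodes a soluble cholesterol carrier, measured 13.5, 11.1 and 8.06 FPKM in the Pro libraries, 7.92, 8.10 and 6.72 in Baso, 9.28, 7.94 and 8.33 in Poly and 5.80, 5.20 and 5.07 in Ortho. All Ortho libraries lay below all others, and the step from Poly to Ortho was -0.58 (SE 0.15, adjusted p = 0.0119), a call that was lost with the libraries centred (-0.43, adjusted p = 0.0533). Its fall from Pro to Baso (-0.45) was lost without Pro replicate 1 (-0.29), Pro replicate 2 (-0.42) or Baso replicate 3 (-0.37) and with the hemoglobin genes left out (-0.16).

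Insig1 and Insig2, which encode the retention proteins of SCAP, did not pass the test in any comparison as deposited. Insig1 had 14.6, 19.9 and 12.7 FPKM in Pro, 15.9, 13.8 and 10.1 in Baso, 18.6, 15.1 and 10.03 in Poly and 17.2, 12.2 and 9.20 in Ortho. Within Baso, Poly and Ortho, replicate 1 was the highest and replicate 3 the lowest library each time, whereas in Pro replicate 2 was highest, so that the SD within a stage (2.92 to 4.31 FPKM) was as large as the range of the stage means (12.9 to 15.7 FPKM). Insig2 had 4.72, 4.14 and 4.03 FPKM in Pro, 2.75, 3.81 and 4.13 in Baso, 3.52, 4.08 and 3.23 in Poly and 3.23, 4.07 and 2.71 in Ortho. Insig1 exceeded Insig2 in all 12 libraries, by 2.45-fold to 5.78-fold, and a difference of the ratio between stages did not pass the test (exact permutation test, p = 0.981), which does not show that it was the same and takes no account of the shared numbers. With the replicate block in 3 stages the SE of Insig1 was 0.078 in place of 0.26, and its change from Poly to Ortho, downward in all 3 same-numbered pairs, was -0.17 (adjusted p = 0.154). From Pro to Ortho the changes were -0.29 for Insig1 (95% interval -0.86 to 0.28) and -0.30 for Insig2 (95% interval -0.62 to 0.027), and without Ortho replicate 2 Insig2 passed the test (-0.42). With all libraries at the same sum both were lower in Ortho (-0.63 and -0.59).

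Of the 4 fatty acid genes, 3 fell from Pro to Baso (background 42.1%) and from Pro to Ortho (background 53.2%), and Scd2 did not pass the test in either comparison. Their summed FPKM was 43.6 to 47.2 in Pro, 27.7 to 28.1 in Baso, 30.7 to 33.4 in Poly and 33.7 to 35.5 in Ortho. Fasn, the fatty acid synthase, had 13.8, 14.4 and 17.8 FPKM in Pro, 6.79, 7.94 and 8.22 in Baso, 8.07, 8.35 and 7.90 in Poly and 10.6, 9.51 and 9.65 in Ortho. It fell from Pro to Baso (-0.91, SE 0.10, adjusted p = 2.63e-05), and every Ortho library lay above every Baso and Poly library (Ortho against Baso 0.34, adjusted p = 0.0198). That rise was lost without Baso replicate 1 (0.27) or Ortho replicate 1 (0.30) and with the same summed FPKM (0.17), and from Poly to Ortho it passed with the hemoglobin genes left out (0.40, adjusted p = 0.00834) or the libraries centred (0.41). Acaca, the acetyl-CoA carboxylase that supplies Fasn with malonyl-CoA, was 7.55 ± 0.80 FPKM (SD, n = 3) in Pro and 4.30 ± 0.25, 4.66 ± 0.68 and 4.40 ± 1.18 in Baso, Poly and Ortho. Its fall from Pro to Baso was -0.69 (adjusted p = 0.00219), and no later comparison of Acaca passed the test (Ortho against Baso 0.006, 95% interval -0.32 to 0.33).

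The stearoyl-CoA desaturases Scd1 and Scd2, neighbours on chromosome 19, put a double bond into saturated fatty acids. Scd1 measured 7.14, 8.48 and 7.27 FPKM in Pro, 3.04, 3.34 and 3.31 in Baso, 2.92, 2.88 and 2.84 in Poly and 3.04, 3.22 and 3.30 in Ortho. The Pro libraries lay above all others (Pro to Baso -1.02, SE 0.09, adjusted p = 4.78e-06). Scd2 measured 17.8, 13.8 and 13.1 FPKM in Pro, 13.8, 12.8 and 11.7 in Baso, 16.96, 16.9 and 15.2 in Poly and 18.1, 17.2 and 15.5 in Ortho. All Poly and Ortho libraries of Scd2 lay above all Baso libraries, and the rise from Baso to Ortho was 0.38 (SE 0.12, adjusted p = 0.0175). It was lost without Baso replicate 3 (0.33) or Ortho replicate 1 (0.34) and with the same summed FPKM (0.20), and the rise from Baso to Poly (0.34, adjusted p = 0.0781) passed with the replicate block in 3 stages (adjusted p = 0.00915) or in all libraries (adjusted p = 0.0261). Without Pro replicate 1, the highest Pro library, Scd2 was also higher in Ortho than in Pro (0.31). The ratio of Scd1 to Scd2 was 0.4 to 0.615 in Pro, 0.22 to 0.283 in Baso, 0.17 to 0.188 in Poly and 0.168 to 0.213 in Ortho, and it differed between stages (exact permutation test, p = 0.000519, adjusted p = 0.000779 over 3 ratios). The plot of the ratios shows the drop between Pro and Baso in 2 of the 3 pairs.

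**Figure D4:**
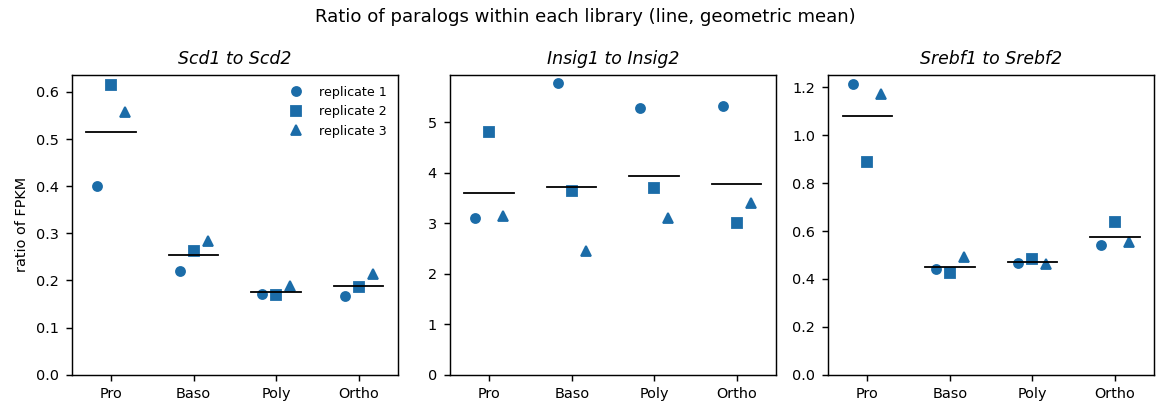
Ratio of FPKM of Scd1 to Scd2, Insig1 to Insig2 and Srebf1 to Srebf2 in each library (points, from 0 on a linear axis), with the geometric mean of a stage as a line. The Scd and Srebf ratios of the 3 Pro libraries lie above those of all 9 later libraries, and the Insig ratios of the stages overlap.

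Ortho was also compared with Baso, a comparison added after the members' stage values had been seen. In it 9 members fell (background 28.8%), 5 rose (background 17.1%) and 14 did not pass the test. With the hemoglobin genes left out, 7 fell (background 21.9%) and 6 rose (background 27.8%). At least 2-fold, Fdft1 fell (-1.57, background 7.18%) and no member rose (background 1.16%). The 9 that fell were Fdft1, Sqle (-0.98), Pmvk (-0.80), Idi1 (-0.70), Srebf2 (-0.69), Nsdhl (-0.66), Acat2 (-0.54), Stard4 (-0.43) and Srebf1 (-0.34). Stard4 lost its call without Baso replicate 1 (-0.40), Baso replicate 2 (-0.39), Ortho replicate 2 (-0.41) or Ortho replicate 3 (-0.40), Srebf1 without Baso replicate 1 (-0.33), Baso replicate 3 (-0.32) or Ortho replicate 3 (-0.23), and both with the hemoglobin genes left out (-0.28 and -0.18). The 5 that rose were Dhcr7, Scd2, Fasn, Mvd and Scap, and of these Dhcr7 alone stayed past the threshold with the same summed FPKM. With the replicate block in 3 stages Fdps fell too (adjusted p = 0.0343). Together with the step from Pro to Baso, 6 members, Acat2, Idi1, Pmvk, Sqle, Srebf1 and Stard4, fell in both comparisons (background 15.4%) and 3 members, Dhcr7, Fasn and Scap, fell and then rose (background 2.49%). The 2 comparisons share the Baso libraries, so that a low Baso value by itself moves them in opposite directions. In none of the 5 comparisons did 6 members, Hsd17b7, Insig1, Insig2, Msmo1, Mvk and Sc5d, pass the test (background 16.4%).

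Genes next to these pathways were listed too. The counts below are from Pro to Ortho, where 53.2% of all genes tested fell and 22.7% rose. All 3 other sterol synthesis genes fell from Pro to Ortho, among them Lbr, a sterol reductase that is also a nuclear envelope protein, by 0.65. Its course was not a plain decline, with means of 196 FPKM in Pro and 124 in Ortho but 318 in Baso and 354 in Poly, a rise of 0.70 from Pro to Baso (adjusted p = 1.1e-05) and a fall of 1.51 from Poly to Ortho (adjusted p = 4.41e-08). Of 7 genes of the non-sterol branches that use mevalonate products, 6 fell, Coq2 (-1.11) and Pdss1 (-1.10) of coenzyme Q synthesis most, and Ggps1, the geranylgeranyl diphosphate synthase, rose by 0.61. Of 10 tested genes of cholesterol uptake, transport, efflux and esterification, 7 rose, 2 fell and 1 did not pass the test. Their median was 0.55, where the members had -0.63 and all genes -0.43. The largest rises were those of Soat1 (0.94), which esterifies cholesterol, and Mylip (0.89), which degrades lipoprotein receptors, and the falls were those of Scarb1 (-0.84), a lipoprotein receptor, and Abca7 (-0.64), a lipid transporter. Of 4 macrophage markers tested, 3 rose in the same comparison, and the part of such cells in these values was not tested. Of 6 genes of SREBP cleavage and sterol-regulated degradation, 3 rose and 3 fell, among them Mbtps1 (-0.65), Erlin1 (0.33) and Rnf139 (0.32). Of 5 tested genes of LXR, ChREBP and partners, 1 rose (Rxra, 0.37) and 3 fell, Nr1h2 (-0.61) most, followed by Rxrb (-0.56), and Mlx (-0.28) did not pass the test.

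Fatty acid genes outside the members were mostly lower in Ortho. Of 17 tested genes of fatty acid synthesis, elongation and desaturation, 12 fell, 4 rose and 1 did not pass the test (background 53.2% lower and 22.7% higher). The desaturases Fads2 (-2.80, 43.5 FPKM in Pro and 5.37 in Ortho) and Fads1 (-1.79) fell most, and Elovl5 (0.75) and Hsd17b12 (0.73), both of fatty acid elongation, rose most. Of 9 tested genes of fatty acid oxidation, listed as a contrast, 8 fell and 0 rose, Acaa2 (-1.73) and Acadvl (-1.53) most, while Acadm (-0.51) fell less and Slc25a20 (-0.12) did not pass the test. Both pathways of fatty acids, synthesis and oxidation, thus had more falls than rises, as did all genes tested in this comparison.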

How the data were processed

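RNA of 12 libraries, 3 for each of Pro, Baso, Poly and Ortho, was analysed from 1 table of FPKM values deposited by the authors. Per the labels, reads were trimmed with cutadapt and Trimmomatic and aligned to mm10 with HISAT2, SAMtools and featureCounts being named too, and versions, annotation release and strand setting are not given in the sources used here. The authors tested counts with DESeq2, which was not repeated on FPKM. Of 29839 rows, 1 repeated identifier with identical values was removed. Positions come from GENCODE M21 (GRCm38).

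The filter kept genes at or above 1 FPKM in 3 or more libraries. The test was limma (version 3.58.1, R version 4.3.3) on log2(FPKM + 1), a scale that understates the change of low genes, with a variance trend and all 12 libraries in 1 model, two-sided, with Benjamini-Hochberg adjustment over 12994 genes. Paralog ratios were tested by exact permutation of the between-stage sum of squares, which cannot give a p below 6.49e-05 and is one-sided by construction. The scripts were tested on simulated data. Low values showed no steps of whole fragments (a median of 5.05% of log2 ratios in the commonest bin over 66 library pairs), so the depth is unknown and no counting error is given.

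Same-numbered libraries deviated together in Baso, Poly and Ortho (correlations of the deviations from the stage means across genes 0.156 to 0.319, other numbers -0.206 to 0.0287). With Pro the correlations of same numbers were weaker but all positive (0.00524 to 0.0968), and those of other numbers ran from -0.123 to 0.0545. The labels give no source for this pairing, and the replicate block was an alternative.

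Every member is named by role, with library values for the 3 largest rises and 6 largest falls from Pro to Ortho, the 3 most abundant members, the paralogs and members moving against their group. Of the other lists the genes with the 2 largest and 2 smallest changes are named, and some listed genes are not reported here. Values of a few further members and of Ctsb were added after they were seen. The members and all lists were chosen with earlier results of these data known. Alternatives changed the pseudocount, filter, scaling, variance model, libraries in the fit, block and criterion, and left out each library in turn.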

Additional observations from a re-analysis of the deposited data

How the results depend on the processing

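The counts of members moved with the scaling and with the 2-fold criterion. Leaving out each library in turn gave 0 to 1 higher and 13 to 16 lower members between Pro and Baso, 0 to 2 and 0 to 2 between Baso and Poly, 0 to 2 and 3 to 7 between Poly and Ortho, 1 to 2 and 19 to 20 between Pro and Ortho, and 2 to 5 and 7 to 10 between Baso and Ortho. Of all genes, these fits called 11.8% to 15.3% higher and 38.1% to 41.7% lower between Pro and Baso. The shares were 1.75% to 7.86% and 2.45% to 7.42% between Baso and Poly, and 3.42% to 4.86% and 18.1% to 22.9% between Poly and Ortho. They were 20.5% to 22.7% and 50.4% to 53.1% between Pro and Ortho, and 12.6% to 18% and 25.1% to 30.3% between Baso and Ortho. With each library left out in turn, the log2 ratio change from Pro to Ortho ran from -1.64 to -1.33 for Scd1 to Scd2, from -1.05 to -0.83 for Srebf1 to Srebf2 and from -0.18 to 0.28 for Insig1 to Insig2, which changed sign without Pro replicate 1 (-0.04), Pro replicate 3 (-0.03) or Ortho replicate 1 (-0.18).

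For Pro to Baso, members higher numbered 0 with the 2-fold criterion, without the filter, with the same summed FPKM, with only both stages in the fit and with the replicate block, 2 without the variance trend, 5 with hemoglobin genes left out and 6 with centring, and members lower numbered 5 with the 2-fold criterion. For Baso to Poly, members higher numbered 0 with the 2-fold criterion, without the filter, with the same sum, with centring and with both stages alone, and 2 with either replicate block. Members lower numbered 0 with the 2-fold criterion, 1 with a pseudocount of 0.1 or 5, without the filter, with the same sum, with hemoglobin left out, without the trend and with both stages alone, and 4 with centring and with the replicate block in 3 stages. For Poly to Ortho, members higher numbered 2 with hemoglobin left out, with centring and with both stages alone, and 1 with the block in 3 stages, and members lower numbered 1 with the 2-fold criterion, 3 with hemoglobin left out and 2 with centring. For Pro to Ortho, members higher numbered 0 with the 2-fold criterion, 1 without the filter, with the same sum and with both stages alone, 5 with hemoglobin left out and 6 with centring, and members lower numbered 8, 10 and 11 with the 2-fold criterion, hemoglobin left out and centring. For Baso to Ortho, members higher numbered 0 with the 2-fold criterion and 1 with the same sum, and members lower 1 with the 2-fold criterion. Of all genes, centring called 30.5% higher and 23.5% lower between Pro and Baso, 4.14% and 7.67% between Baso and Poly, 11.1% and 15% between Poly and Ortho and 24.1% and 23.9% between Baso and Ortho, and the same sum called 8.89% and 51.3%, 4.64% and 4.59%, 2.69% and 32.3%, and 8.41% and 36.8%. Over the other pseudocounts, no filter, no trend, both stages alone and the blocks, these shares were 5.56% to 16.1% higher and 17.8% to 42.7% lower between Pro and Baso, 1.61% to 12.6% and 1.62% to 9.44% between Baso and Poly, 1.88% to 6.31% and 8.51% to 24.5% between Poly and Ortho, 11% to 23.4% and 24.5% to 53.5% between Pro and Ortho, and 6.6% to 21% and 11.4% to 31.8% between Baso and Ortho. Beyond the construction of these alternatives the cause was not tested. The replicate block in all 12 libraries ended the calls of Fdft1 from Pro to Baso and Idi1 from Baso to Poly (adjusted p = 0.0531) and added those of Srebf2 and Scd2 from Baso to Poly. Without the filter and with both stages alone, Fdft1, Stard4 and Fdps from Pro to Baso, Mvd and Idi1 from Baso to Poly, Idi1 from Poly to Ortho and Hmgcs1 from Pro to Ortho lost their calls. Sqle from Baso to Poly and Nsdhl from Poly to Ortho lost theirs with both stages alone, and Dhcr7, Srebf1 and Stard4 from Baso to Ortho without the filter.

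Changes of sign between Pro and Ortho concerned members that did not pass the test, and Scap. With hemoglobin left out and with centring, Insig1 was 0.17 and 0.11, Insig2 0.091 and 0.099, Sc5d 0.32 and 0.33 and Scap 0.14 and 0.076. With the same sum, Scd2 was -0.17, Hsd17b7 -0.11, Msmo1 -0.083 and Mvk -0.23. Leaving out each library in turn, Hsd17b7 ran from -0.088 (without Ortho replicate 2) to 0.229, Sc5d changed sign without Pro replicate 3 (0.078) and Ortho replicate 2 (0.036), and Mvk without Pro replicate 2 (-0.029), Pro replicate 3 (-0.008), Ortho replicate 2 (-0.029) and Ortho replicate 3 (-0.012). For 68 changes of single members (all from Pro to Ortho, and those past the threshold in the other comparisons), 1341 values over the alternatives kept direction and side of the threshold, 136 lost and 11 gained a call, and 19 changed sign. Calls gained in the other comparisons are not in these numbers. With 3 libraries a stage, the SE of a member's log2 fold change without the block was highest for Insig1 (0.26), followed by Dhcr7 (0.20), and the depth behind the values is unknown.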
